A study of Gallus gallus with 10 samples.

Results

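The genes described here drive and mark cell division: cyclins and their kinases, the replication machinery, the kinetochore and spindle checkpoint, and the motors that separate chromosomes. They were taken as a list of 38 gene symbols, drawn up with earlier results of these data known. For 33 of them the array held a probe set carrying that gene symbol, out of 13009 named genes on the array. CDK2, MCM4, MCM7, CCNB2 and AURKA were not matched to a probe set by symbol and were not analysed here. All 33 measured genes lay above the filter on dim probe sets.

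Expression was measured in whole hearts of chicken embryos on 10 single-colour oligonucleotide arrays. One group was 5 pools of male heart RNA and the other 5 pools of female heart RNA, lettered A to E in each sex. No treatment, strain or genotype is named for either group, and neither embryonic age nor pool size is stated. No label says that pools hold separate embryos. The p-values therefore reflect only pool-to-pool spread, which may be technical.

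A cell divides by passing through ordered phases. D-type and E-type cyclins, with their kinases, commit the cell to replication in G1. The MCM helicase with CDC45 then opens the DNA, PCNA clamps the polymerases to it and ribonucleotide reductase supplies deoxynucleotides. CDK1 with A-type and B-type cyclins starts mitosis, in which kinetochore proteins attach chromosomes to the spindle and the BUB and TTK checkpoint proteins delay separation until attachment is complete. Cardiac muscle cells divide in the embryo and largely stop doing so after birth or hatching. In birds the female is ZW and the male ZZ. Genes on Z are thus present in 1 copy in the female hearts and in 2 in the male hearts.

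Intensities are on the authors' linear scale, and each ratio is a difference of mean log2(intensity + 16), male less female. Males and females were compared with limma, with Benjamini-Hochberg adjustment over all 23063 tested probe sets and a threshold of 0.05, and each gene was read through its brightest probe set. Array medians lay between 605 and 735 intensity units, and correlations between arrays lay between 0.946 and 0.971. The actin 3′ over 5′ log2 ratio, a sign of RNA quality, was 0.635 to 0.813 in males and 0.549 to 0.813 in females. All 10 cardiomyocyte markers, such as TNNT2, ACTC1 and NKX2-5, lay at or above the 96.8th percentile of probe set brightness. Markers of other cell types were also measured, with erythroid, fibroblast and endothelial medians at the 92nd, 99.5th and 85.9th percentile. None of 51 measured markers was called between the sexes by limma, and 5 had an unadjusted p under 0.05. Of these, the fibroblast marker LUM was at 0.33 (limma adjusted p = 0.051), with pools that did not overlap. NKX2-5, HBZ, TIE1 and TCF21 were at -0.15, -0.52, -0.22 and -0.23. In whole-heart RNA, a change in the number of dividing cells and a change in RNA per cell cannot be told apart.

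Of the 33 cell cycle genes, 1 was called between the sexes. CKS2, on Z, was 1.87-fold higher in males, and no gene was higher in females. MELK, also on Z, was 1.28-fold higher in males but missed the threshold, with an adjusted p of 0.066. None of the 31 autosomal members passed (limma), and 4 of them had an unadjusted p under 0.05. Across the array 2.23% of the 10284 genes were called, 40.9% of 492 Z genes in the male direction and 0.164% of 9765 autosomal genes in either direction. In the male direction 1.99% of all genes were called, beside 1 of the 33 cell cycle genes. The median ratio of the autosomal members was -0.01, beside -0.03 over all autosomal genes, and 15 of 31 lay above 0. Autosomal genes as a whole lay above 0 in 41.5% of cases.

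**Figure D1:**
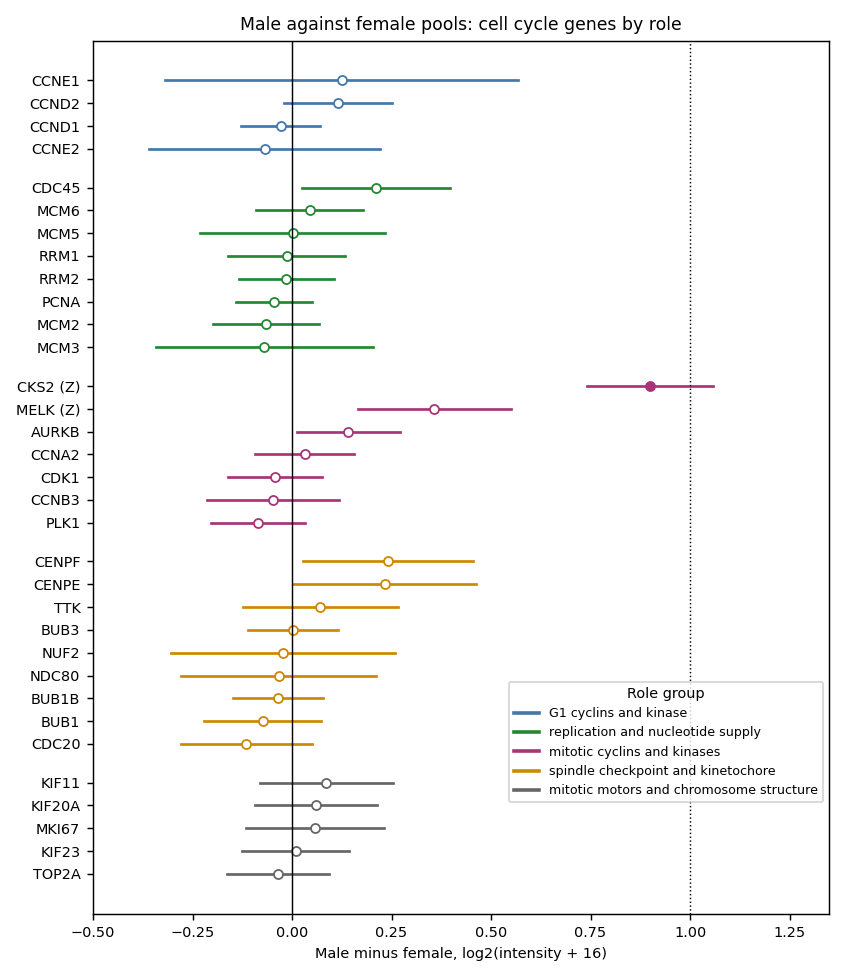
Male minus female difference in log2(intensity + 16) for 33 cell cycle genes in 5 role groups, with 95% intervals from limma (5 pools per sex); a filled point marks an adjusted p under 0.05, and the dotted line marks a log2 ratio of 1. CKS2 stands apart at 0.90 with an interval of 0.74 to 1.06, MELK lies at 0.36, and the 31 autosomal genes lie between -0.11 and 0.24.

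CKS2 encodes a small subunit of the CDK1 and CDK2 kinase complexes that helps them bind their phosphorylated substrates. Its intensity was 11604, 11771, 13407, 12388 and 12509.6 in male pools A to E and 7015, 6912, 5569, 6729 and 6879.6 in female pools A to E. Every male pool lay above every female pool, and the lowest male value exceeded the highest female value by more than the whole female range. The male mean was 12336 ± 713 and the female mean 6621 ± 597 (SD over 5 pools). The log2 ratio was 0.90 ± 0.07 (SE, limma adjusted p = 2.23e-06), and its 95% interval of 0.74 to 1.06 included 1, a 2-fold difference. Female C was the lowest female pool, and without it the ratio was 0.84 (limma adjusted p = 3.89e-06). The ratio lay above that of 450 of the 492 Z genes (91.5%).

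MELK encodes a maternal embryonic leucine zipper kinase that is abundant in dividing progenitor cells. It measured 5207, 4255, 4387, 4323 and 4993 in male pools A to E and 3509.9, 3532, 3175, 3798 and 4044 in female pools A to E. The sexes did not overlap, although male B at 4255 and female E at 4044 came close. The log2 ratio was 0.36 ± 0.09 with a 95% interval of 0.17 to 0.55 (limma adjusted p = 0.066), which lay wholly below 1. Of the Z genes, 44.5% had a smaller ratio. MELK passed the threshold when arrays were centred on autosomal genes (adjusted p = 0.048) or when genes were read as the mean of their probe sets (adjusted p = 0.0495). MELK has 1 named probe set, so the latter fit left its ratio at 0.36. MELK failed in all 10 fits that left out 1 array (adjusted p = 0.0502 to 0.189).

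The difference between the 2 Z-linked genes was tested on each array's own contrast. CKS2 minus MELK was 1.41 ± 0.18 in males and 0.87 ± 0.10 in females on the log2 scale (SD over 5 pools), a shift of 0.54. Among the 252 ways to assign the arrays, the exact permutation p (two-sided) was 0.00794, the smallest these arrays allow. The male minus female ratio was thus larger for the CKS2 probe set than for the MELK probe set. This contrast was not among the planned comparisons, and both genes were chosen with earlier results of these data known. Other probe sets of single members differed in ratio from the brightest by a median of 0.20 and at most 0.68. With 1 probe set each, a difference between the genes and one between probe sets cannot be told apart. The test treated all arrays as exchangeable, whatever their letter. Male and female arrays did not overlap for these 2 of 33 genes and overlapped for all 31 autosomal ones. Over the array, 3.91% of all genes, 47.4% of Z genes and 1.61% of autosomal genes did not overlap.

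Among the G1 cyclins, none was called. CCND1, cyclin D1, the growth-factor-responsive partner of CDK4 and CDK6, measured 20630.0, 20617, 20640.5, 19696 and 20849.5 in males A to E and 20420.2, 21325, 20754, 20919 and 21057 in females A to E. The pools of both sexes interleaved, and the within-sex SD of 0.03 on the log2 scale was the smallest of all 33 genes. Its ratio was -0.03 ± 0.05, with an interval of -0.13 to 0.07. CCND2, cyclin D2, was at 0.11 ± 0.06 and ranged from 15892 to 17192 in males and from 13415 to 17070.1 in females.

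The E-type cyclins, which bind CDK2 at the start of replication, had the dimmest probe sets of the list. CCNE1 measured 632, 838, 939, 926 and 1020.4 in males A to E and 665, 947, 559, 862 and 998 in females A to E. Its within-sex SD of 0.31 was the largest of the 33 genes, and its ratio of 0.12 ± 0.21 left an interval from -0.32 to 0.57. Its other tested probe set had a ratio of -0.30 (limma adjusted p = 0.859). CCNE2 was at -0.07 ± 0.14. NUF2, MCM3 and MCM5 followed CCNE1 in within-sex SD, ahead of CCNE2.

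The replication genes were bright and little different between the sexes. PCNA measured 54241, 54578, 51961, 53775 and 54634 in males A to E and 54064, 56779, 54005, 58460.2 and 54742 in females A to E. The sexes overlapped, and the ratio was -0.05 ± 0.04 with an interval of -0.14 to 0.05, the narrowest among the autosomal members. The helicase subunit genes MCM2, MCM3, MCM5 and MCM6 had ratios of -0.07, -0.07, 0.00 and 0.04. The ribonucleotide reductase genes RRM1 and RRM2, the large and small subunit, were both at -0.01. Adjusted p-values of these 6 genes lay between 0.827 and 0.998 (limma).

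CDC45, the helicase cofactor, had the largest ratio of the replication group. It measured 8888, 9435, 8841, 8833 and 8890.1 in males A to E and 9455, 8495, 7059, 6642 and 7443 in females A to E. Males lay within a narrow band, while females spread widely, with female A above every male pool. The ratio was 0.21 ± 0.09 (unadjusted p = 0.0289, limma adjusted p = 0.456), so it did not pass.

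The mitotic cyclins and kinases outside Z were also not called. CDK1, the kinase that starts mitosis and a binding partner of CKS2, measured 61503, 59337, 57544, 66427 and 64240.0 in males A to E and 63758, 64567, 60746, 69415 and 59938 in females A to E. Male and female pools overlapped over most of their range. The ratio was -0.04 ± 0.06 with an interval of -0.16 to 0.08. CKS1B, the autosomal relative of CKS2 and named here after its values were seen, was at -0.08 ± 0.07 (limma adjusted p = 0.811).

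CCNA2, cyclin A2 of S phase and early mitosis, was at 0.03 ± 0.06, and CCNB3, a B-type cyclin, at -0.05 ± 0.08. PLK1, the polo kinase of centrosomes and mitotic entry, was at -0.09 ± 0.06, with a male mean of 20328 ± 1055 and a female mean of 21564 ± 1013 (SD over 5 pools). The gene annotated as AURKB, an aurora kinase gene on chromosome 20, averaged 12823 in males and 11634 in females. Whether it corresponds to AURKB or to AURKA of other species was not checked. Its ratio was 0.14 ± 0.06 (unadjusted p = 0.0349, limma adjusted p = 0.49).

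Kinetochore and checkpoint genes split between small ratios of either sign. The checkpoint genes BUB1, BUB1B and BUB3 were at -0.07, -0.03 and 0.00, and TTK, the MPS1 kinase that starts checkpoint signalling, was at 0.07. Other tested probe sets of TTK had ratios of -0.30 and -0.12 (limma adjusted p = 0.601 and 0.867). CDC20, the activator of the anaphase-promoting complex and the target of the checkpoint, had the lowest ratio of all 33 genes at -0.11 ± 0.08 (limma adjusted p = 0.735). NDC80 and NUF2, which pair in the microtubule-binding complex of the outer kinetochore, were at -0.03 and -0.02. The other probe set of NDC80 was at -0.25 (limma unadjusted p = 0.047, adjusted p = 0.54). NUF2 had 1 low pool, female E at 16023, where the other females lay between 24165 and 27387.

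CENPE, a kinetochore motor, and CENPF, a large coiled-coil protein of the outer kinetochore, had the largest autosomal ratios. CENPF measured 6916, 5670.4, 6341, 6499 and 7260.3 in males A to E and 6582, 4731, 6019.8, 4766 and 5688 in females A to E. The highest male pools exceeded all females, but the ranges overlapped, and the ratio of 0.24 ± 0.10 did not pass (unadjusted p = 0.03, limma adjusted p = 0.462). The other 4 tested probe sets of CENPF had ratios of -0.44, 0.47, -0.12 and 0.04, and the mean of its probe sets was at 0.04. CENPE was at 0.23 ± 0.11 (unadjusted p = 0.0476, limma adjusted p = 0.541), and its other probe set was at -0.21. For both genes the sign of the ratio therefore depended on the probe set.

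The mitotic motors and the proliferation markers MKI67 and TOP2A showed no called difference. MKI67, which coats mitotic chromosomes and is the standard marker of cycling cells, measured 20586, 19242, 20427, 19747 and 19496 in males A to E and 21738, 21941, 17678, 15768 and 19144 in females A to E. The female pools spanned the whole male range and beyond on both sides. The ratio was 0.06 ± 0.08 with an interval of -0.12 to 0.23 (limma adjusted p = 0.889). Without female D, the lowest pool, it was -0.01.

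TOP2A, the topoisomerase that untangles replicated chromosomes, measured 12578, 12469, 12364, 13883 and 12388 in males A to E and 12505, 12788, 12352, 13433 and 14236 in females A to E. Its pools overlapped, and the ratio was -0.04 ± 0.06. KIF11, the motor that pushes spindle poles apart, measured 9668, 12226, 12103, 10309 and 10424 in males A to E and 11210.0, 10929, 9925, 9306 and 10064 in females A to E. It had the largest ratio of this group, at 0.09 ± 0.08, with overlapping pools. KIF20A and KIF23, motors of the central spindle and of cell separation, were at 0.06 and 0.01.

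The intervals describe which sizes of difference between these pools the values allow, given a pool-to-pool spread that may be technical. They are intervals for single genes, without adjustment for the number tested, and are not limits of what the adjusted test could call. For all 31 autosomal members the 95% interval lay within a 1.5-fold difference in either direction, and for 20 of them it lay within a 1.2-fold difference. For 3 genes it lay within 1.1-fold. These limits hold for these pools and for the brightest probe set of each gene. They set no bound on a difference between male and female embryos. Of the 23 other tested probe sets, 9 had an interval that passed 1.5-fold, in BUB1B, CCNE1, CENPF, KIF20A, MCM6 and TTK. The interval included 0 for 27 genes and lay above 0 for 4, namely CDC45, AURKB, CENPE and CENPF, none of which passed after adjustment. Among autosomal genes as a whole 7.25% had an unadjusted p under 0.05.

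Of a further 158 listed genes of the cycle, 136 were measured, 123 on autosomes and 13 on Z. None of the autosomal genes was called (limma), beside 0.164% of all autosomal genes, 7 had an unadjusted p under 0.05, and their median ratio was -0.01. Of the 13 Z genes 7 were called, all higher in males, beside 40.9% of all Z genes, and their median ratio was 0.58 against 0.40 for all Z genes. These counts lay near those backgrounds and show nothing particular to cell cycle genes. By role, 2 of 33 G1 regulators, 1 of 46 replication genes and 4 of 57 mitotic genes were called. These lists held 4, 2 and 7 Z genes, and every called gene was on Z.

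**Figure D2:**
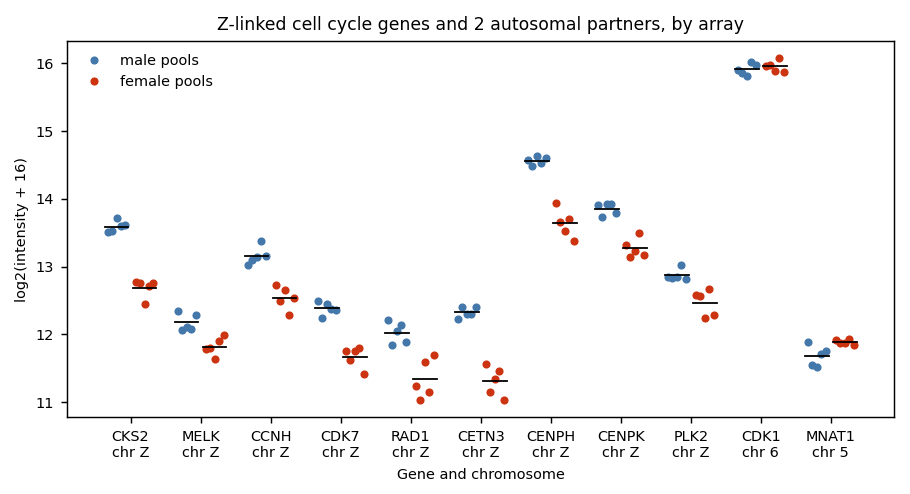
Log2(intensity + 16) of CKS2, MELK and the 7 other called Z-linked cell cycle genes, and of the autosomal partner genes CDK1 and MNAT1, in 5 male and 5 female pools; points are arrays and bars are means. For the 9 Z genes every male pool lies above every female pool, while the sexes overlap for CDK1 and MNAT1.

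Both CDK7 and CCNH were higher in males. They encode the kinase and the cyclin of the CDK-activating kinase, which phosphorylates CDK1 and CDK2 and also serves in the transcription factor TFIIH. CDK7 measured 5720.4, 4842, 5559, 5309 and 5245 in males A to E and 3427, 3119, 3455, 3563 and 2719 in females A to E, without overlap. Its ratio was 0.71 ± 0.09, a 1.64-fold difference (limma adjusted p = 0.000163). CCNH was at 0.62 ± 0.09, or 1.54-fold (limma adjusted p = 0.00066), with males at 8309 to 10683 and females at 4960.3 to 6748. With the mean of its probe sets CCNH was at 0.82 (limma adjusted p = 2.5e-05). MNAT1, the remaining subunit, encoded on an autosome, named after its values were seen, was at -0.20 ± 0.09 and did not pass (limma adjusted p = 0.482).

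Of the inner kinetochore, CENPH and CENPK were called. They encode subunits of one complex of the constitutive centromere-associated network. CENPH measured 24269, 22981, 25360.5, 23612 and 24824 in males A to E and 15699, 12930.3, 11727, 13367 and 10619 in females A to E. The ranges were far apart, and the ratio was 0.92 ± 0.09, or 1.90-fold (limma adjusted p = 8.04e-06). CENPK was at 0.58 ± 0.07 (limma adjusted p = 0.000191). CENPI and CENPM, autosomal subunits of the same complex and named after their values were seen, were at 0.01 ± 0.09 and -0.23 ± 0.13 and did not pass (limma adjusted p = 0.986 and 0.644).

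Another 3 Z genes were called. CETN3, a centrin of centrosomes, had the largest ratio of the listed cycle genes at 1.02 ± 0.10, or 2.03-fold (limma adjusted p = 1.83e-05), with 4792 to 5386 in males and 2071 to 3002 in females. RAD1, of the DNA damage checkpoint clamp, was at 0.69 ± 0.13 (adjusted p = 0.00899). PLK2, a polo-like kinase of centriole duplication, was at 0.41 ± 0.09 (adjusted p = 0.0239). PLK2 lost the call without male A, C or D or female C or E (limma adjusted p = 0.054 to 0.0782), and with no variance trend (0.101). With the mean of its probe sets PLK2 was at 0.56 (limma adjusted p = 0.000164), so its size depended on the probe sets read.

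The remaining 6 Z genes did not pass. The phosphatase gene CDC14B was at 0.65 ± 0.17 without overlap between the sexes (limma adjusted p = 0.0885), and RAD17, the loader of the checkpoint clamp, was at 0.22 ± 0.10 (adjusted p = 0.518). CDKN2A, a cell cycle inhibitor gene, was at 0.32 ± 0.22, and the motor genes KIF2A and KIF24 at 0.07 ± 0.08 and 0.52 ± 0.39. With the mean of its probe sets KIF2A was at 0.30 (limma adjusted p = 0.261). SKP2, a ubiquitin ligase subunit that marks the CDK inhibitor p27 for degradation, was at -0.15 ± 0.14 and had the lowest ratio of the 13. Of all Z genes, 4.88% had a lower ratio than SKP2.

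The members varied less from pool to pool than tested genes as a whole, but slightly more than genes of high brightness. The median within-sex SD was 0.11 on the log2 scale, against 0.18 over all tested genes and 0.10 over the 1829 genes at or above the members' median brightness. On each array the median deviation of the 33 genes from the mean of its own sex lay between -0.05, on female C, and 0.03, on female D. Over all tested genes, a far larger set, this median lay between -0.003 and 0.020. Of the replication genes, 7 of 8 were highest on female D among the females, CDC45 being the exception. Of all 33 members 12 were highest on female D and 12 on female A (36.4% each), and 33.3% were lowest on female C. Of all tested genes 27.4% were highest on female D, 19.6% highest on female A and 18.5% lowest on female C. For genes at or above the members' median brightness these shares were 24.4%, 20.1% and 19.1%. Female D was lowest for 21.2% of members, 24% of all tested genes and 31.7% of those bright genes. It had the highest median intensity of the 10 arrays, at 735. The part of any single array in the pattern was not tested. CDC45, MKI67, CCNA2, AURKB, CENPE, NDC80 and KIF11 were instead lowest on female D, an array and genes singled out after the values were seen.

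**Figure D3:**
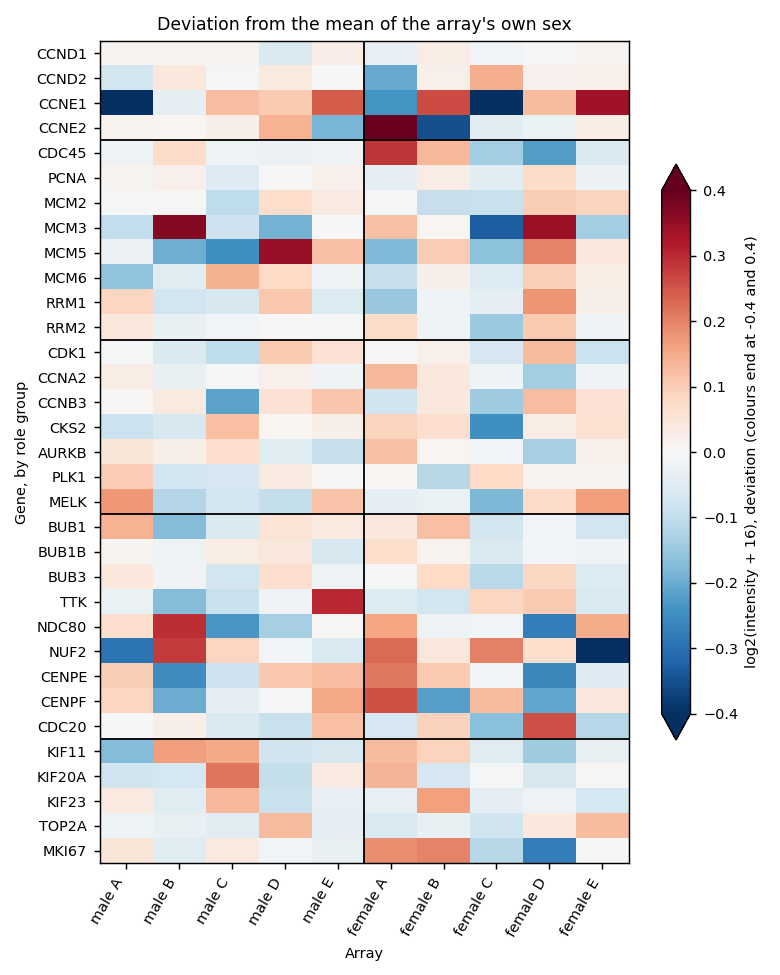
Deviation of each of 33 genes (rows, by role group) on each of 10 arrays (columns) from the mean of that array's own sex, in log2(intensity + 16). Colours end at -0.4 and 0.4. The strongest colours lie in CCNE1, CCNE2, MCM3, MCM5, TTK, NDC80 and NUF2, and every array holds both colours.

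Co-variation was described by Pearson correlations over the 10 arrays after the mean of each sex was subtracted. The median over the 528 pairs of members was 0.04, and 53.8% of pairs lay above 0. The median was 0.00 over all pairs of tested genes and 0.06 over pairs of genes at or above the members' median brightness. Correlations of 0.7 or more made up 3.98% of member pairs and 4.26% of pairs of those bright genes. The shares were close, and no test was made of the difference.

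Within role groups, the 28 pairs of replication genes had a median of 0.295 with 78.6% above 0, and the 10 pairs of motor and chromosome genes one of 0.294. Medians were 0.11 for mitotic cyclins and kinases, 0.06 for kinetochore and checkpoint genes and -0.14 for G1 cyclins. Between replication genes and the 3 mitotic groups the median was 0.02. Pairs share arrays and genes, so these values are a description and carry no test. The replication genes' median deviation was -0.11 on female C and 0.10 on female D, against -0.06 to 0.04 on the other arrays. Over all member pairs the median correlation was 2e-04 without female C and 0.0951 without female D. How far those arrays carry the replication median was not tested.

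**Figure D4:**
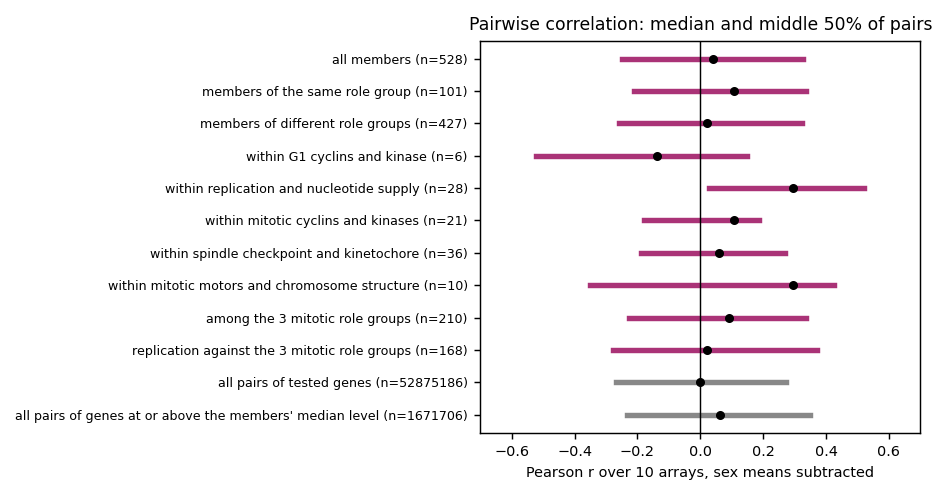
Median (point) and middle 50% (bar) of pairwise Pearson correlations over 10 arrays, sex means subtracted, for groups of member pairs and, in grey, for all tested genes and for bright genes. The replication pairs lie to the right with a median of 0.295, and the bars of the other groups cross 0, as the grey bars do.

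Different probe sets of one gene bear on how far these pool-to-pool values can be read. Of the 33 members, 19 had several probe sets, and 23 further probe sets of 17 genes were tested. None of the 23 was called by limma. Their ratios differed from that of the brightest probe set by a median of 0.20, and at most by 0.68, for CENPF. Besides CENPE and CENPF, the sign differed between probe sets for CCND1, CCND2, CCNE1, KIF11, KIF20A, KIF23, MCM6, TOP2A and TTK. For BUB1, BUB1B, CCNE2, NDC80, NUF2 and RRM1 the sign was the same. Over the 10 arrays, the deviations of a further probe set correlated with those of the gene's brightest probe set at a median of 0.14. These correlations ran from -0.46 for CENPE to 0.66 for CENPF, with 15 of 23 above 0. CKS2 and MELK each had 1 named probe set, so their ratios have no second reading on this array.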

How the data were processed

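RNA of 5 male and 5 female heart pools was read on 10 arrays. The authors deposited 1 linear intensity for each probe set; their summarisation software is not given in the sources used here. A 2% trimmed mean of 2500.5 to 2500.6 on every array shows a common scale. Precision is limited by having 10 arrays. Of 38535 probe sets, 27178 had 1 gene symbol in the platform annotation, 177 had several and 11180 none. Symbols and chromosomes came from the RefSeq table of GRCg7b, with 26863 probe sets matched on gene ID and 308 on symbol. Controls (96 probe sets) and the lowest 40% by mean log2(intensity + 16) were left out. The probe set with the highest mean stood for a gene. Males and females were compared with limma 3.58.1 in R 4.3.3 (lmFit and eBayes with a variance trend), tested on simulated data. The single-value contrast used an exact permutation test. Genes given by array were CKS2, MELK, called members, the largest ratio of each role group, the largest within-sex SD, MKI67, TOP2A, CDK1, PCNA and CCND1; of other cycle genes, called and Z-linked ones. Members and lists were chosen with earlier results of these data known. Alternatives were a replicate block, quantile normalization, centring, other filters and pseudocounts, arrays left out, array weights, no variance trend, the mean of probe sets and, for correlations, Spearman's rho. Promoter motifs were planned but not analysed here.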

Additional observations from a re-analysis of the deposited data

Results flagged for a closer look

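In groups of 5 pools, 1 pool stood apart from the other 4 in 8 of 92 groups looked at (46 genes in each sex), by a gap over range above 0.71, which chance gives in about 1 in 20 groups. For CKS2, female C stood below the other females (5569 against 6729 to 7015, gap over range 0.819). For NUF2, female E stood below the others (16023 against 24165 to 27387, 0.766), and for KIF23 female B stood above them (16022 against 13639 to 14096, 0.795). Male B stood above the other males for CDC45 (9435 against 8833 to 8890.1, 0.903). Male D stood below them for CCND1 (19696 against 20617 to 20849.5, 0.803) and above them for TOP2A (13883 against 12364 to 12578, 0.851) and PLK2 (8307 against 7229 to 7367, 0.864). For CDC14B, female B stood below the others (711 against 1236 to 1386, 0.828).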

How the results depend on the processing

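CKS2, CCNH, CDK7, RAD1, CETN3, CENPH and CENPK passed under all 20 alternatives, with CKS2 between 0.84 and 0.92. With the letter as a replicate block, 225 genes and 1 member were called, against 229 and 1 without it. Deviations of same-letter pools correlated at 0.00 to 0.21, with only A, D and E above 0.1. Among the female pools, male pools A, B, D and E each correlated best with the one of their own letter. For B (0.057 against 0.037) and D (0.100 against 0.092) the next female pool came close. The actin 3′ over 5′ log2 ratio was close between the sexes for A (male 0.8127, female 0.8133), B (0.6579, 0.6501) and C (0.7044, 0.6976). It lay further apart for D (0.6345, 0.7003) and E (0.6879, 0.5486). The GAPDH 3′ over 5′ log2 ratio ordered the letters differently. It was close for B (male -0.082, female -0.094) and D (-0.180, -0.162). For A (0.019, -0.042), C (-0.005, -0.117) and E (-0.087, -0.138) it lay further apart. The letters were not taken to pair the pools, and whether same-letter pools shared processing was not tested. Members called numbered 2, with MELK, after centring on autosomal genes and with the mean of probe sets. Without 1 array, 196 to 227 genes, 1 member and 6 or 7 other cycle genes were called, the members' median ratio was -0.02 to 0.02 and their median correlation 2e-04 to 0.0951. That correlation was 0.0149 with letter means also subtracted, as in the block. Ratios near 0 changed sign for CDK1 after quantile normalization (4e-04), for CCNE1 (-0.0897), TOP2A (0.0159) and CCND1 (0.0358) with the mean of probe sets, and for MKI67 without female D (-0.0109, where leaving out 1 array gave up to 0.1081). CCNE1, CDKN2A and KIF24 fell below the 60% filter. The causes were not tested.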

Other observations

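Among the 123 autosomal genes of the further list, 4 had male and female pools that did not overlap, all lower in males. Over the array 157 autosomal genes (1.61%) did not overlap, and 120 of these were lower in males, so that direction was the common one. These genes were singled out after their values were seen, and none passed the threshold. CENPT, an inner kinetochore gene, was at -0.27 ± 0.08 (limma adjusted p = 0.144), with 3562 to 4093 in males and 4270.4 to 5026 in females. TK1, the thymidine kinase gene of S phase, was at -0.19 ± 0.06 (limma adjusted p = 0.204), with 10665 to 11234 in males and 11532 to 13513 in females. CDT1, of replication licensing, and RFC2, a clamp loader subunit, were at -0.15 ± 0.07 and -0.11 ± 0.05 (limma adjusted p = 0.534 and 0.518). E2F1, a transcription factor gene of the G1 to S transition, was at -0.19 ± 0.08 with overlapping pools (limma adjusted p = 0.471). It is not one of the 4 and was also named after its values were seen. Of all 123 autosomal genes of the further list, 55 had a ratio above 0, up to 0.48, and the median was -0.01.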
